A study of Mus musculus with 20 samples.

Results

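The transcripts described here are those of 3 glucose transporters, Slc2a1, Slc2a3 and Slc2a4, and 2 hexokinases, Hk1 and Hk2. They were chosen by gene symbol, as every probe set to which the platform's annotation gives only that symbol. This yielded 12 probe sets for 5 of the 12393 genes that have such a probe set. Another probe set, 1436822_x_at, lists Hk1 together with other genes and was not used. Of the 12 probe sets, 9 passed a filter on low mean intensity and were tested. The remaining 3 were dimmer, and only their values are described, with a fit that applied no filter.

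Skeletal muscle RNA of 20 mice was hybridised to 20 arrays, with 5 mice in each of 4 groups. The groups are untrained wild-type mice (titled WTUT), trained wild-type mice (WTT), untrained transgenic mice (TGUT) and trained transgenic mice (TGT). Transgenic here means over-expression of MHC-I, and the training was endurance training, as the series is titled. The labels do not spell out MHC-I, and they give neither the construct and its promoter nor the muscle, strain, sex, age, training protocol or array batch. Where values of single mice are listed below, they follow the order WTUT-130, WTUT-135, WTUT-136, WTUT-138 and WTUT-142 in the first group and WTT-129, wtt-134, wtt-137, WTT-141 and WTT-144 in the second. The order is TGUT-131, TGUT-139, TGUT-145, TGUT-146 and TGUT-147 in the third group and TGT-128, TGT-132, TGT-133, TGT-140 and TGT-143 in the fourth. Each mouse has its own number, so that no number pairs mice across groups, and nothing says whether mice of 1 group shared a litter or cage. The p-values therefore measure the spread between these mice only.

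Mice carry the facilitative glucose transporters GLUT1, GLUT3 and GLUT4 in Slc2a1, Slc2a3 and Slc2a4. GLUT1 serves basal uptake in most tissues and GLUT3 is the high-affinity transporter best known from neurons. GLUT4 is the insulin- and contraction-responsive transporter of muscle and fat, stored in vesicles that move to the cell surface. Hexokinases phosphorylate the glucose that has entered, which traps it in the cell. Hexokinase I, from Hk1, is found in most tissues, and hexokinase II, from Hk2, is the main form of insulin-responsive muscle.

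Array medians lay between 157 and 175 in intensity, and pairs of arrays correlated with r between 0.957 and 0.994. Of the fast-fibre markers, 8 of 8 were measured, with summed intensities of 109000 to 118000 over all mice. Among them Myh1, a fast myosin heavy chain, rose with training averaged over genotypes by 0.21 log2 (limma adjusted p = 0.0303; kept in 15 of 20 fits that left out 1 mouse), with means of 7030 in WTUT, 8050 in WTT, 7190 in TGUT and 8390 in TGT. It was the only 1 of the 8 called in that contrast, where 4 lay above 0 and 4 below and 4.99% of all probe sets tested were called. The arrays of mice wtt-137 and TGT-133 held 822 and 386 of the 1745 empty cells, none of them in a probe set described here. Mean H2-K1, a class I histocompatibility heavy chain, was 1102 ± 307 (SD, n = 5) in WTUT, 1222 ± 345 in WTT, 1069 ± 201 in TGUT and 1067 ± 411 in TGT. Mean Myh7, the slow myosin heavy chain, was 1254 ± 928, 1259 ± 566, 473.5 ± 202 and 395.4 ± 75.4 in the same order. The transgene averaged over training differed by -0.117 ± 0.155 log2 for H2-K1 (SE; limma adjusted p = 0.724). For Myh7 it differed by -1.265 ± 0.258 (adjusted p = 0.0201), so neither gene was raised in the transgenic groups. Whether either gene is the one over-expressed is not stated, so these levels do not check the genotype labels. The groups rest on the titles, which a free-text description contradicts for some mice.

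The clearest differences among the members were those of Slc2a3, which was higher in transgenic than in wild-type mice and lower in trained than in untrained mice. The other transporters, Slc2a1 and Slc2a4, had lower means in transgenic mice, and Hk1 had higher means in trained mice, but none of these passed the test. Hk2 had 3 mice far below the rest and passed no test. Differences are given on a log2 scale, after adding 66.7 to each intensity. That constant shrinks the changes of dim probe sets. A probe set was called where limma's p-value, adjusted by the Benjamini-Hochberg method over all 13576 probe sets tested, was under 0.05.

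Averaged over training, 2 of the 9 member probe sets rose with the transgene and 0 fell, where 1.23% of all probe sets tested were called. Averaged over genotypes, 2 of 9 fell with training and 0 rose, against 4.99% called overall. All of these calls were the same 2 Slc2a3 probe sets. In contrasts between single groups limma called 0 of 9 members. For training this holds in wild-type mice, where 0.0% of all probe sets were called (1069 at an unadjusted p under 0.05), and in transgenic mice, where 0.309% were. For the transgene it holds in untrained mice (0.11% called overall) and in trained mice (0.0516%). At an unadjusted limma p under 0.05 the members passing were 2, 3, 3 and 6 of 9 in these contrasts. Over all 13576 probe sets, 1069, 2362, 1103 and 1692 passed in the same order. By exact permutation 3, 5, 3 and 6 members were under 0.05, a test run on member probe sets only, so it has no share over the array. Probe sets of 1 gene are counted separately here. The interaction of transgene and training was called for 0 members by limma, also at an unadjusted p, and for 0.0% of all probe sets (395 at an unadjusted p under 0.05).

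The medians of the 9 member differences were -0.15 for the transgene and -0.14 for training in the averaged contrasts, and both medians over all probe sets tested were 0.00. In each of these contrasts 2 members lay above 0 and 7 below. Several of them are probe sets of 1 gene, so they are not separate readings.

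**Figure D1:**
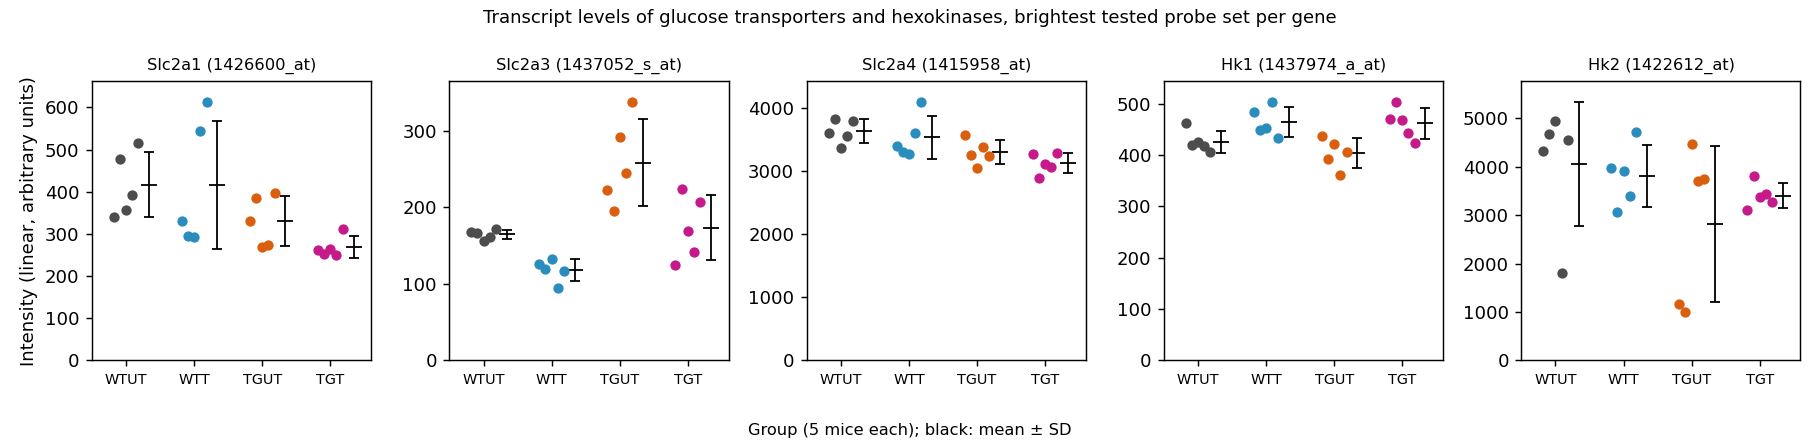
Intensity (linear scale, from 0) of the brightest tested probe set of each gene, by group. Each point is 1 mouse, and the black mark and bar are the mean and SD of 5 mice. For Slc2a3 every untrained transgenic mouse is above every untrained wild-type mouse, and how many of all probe sets separate so was not counted. Hk2 has 3 mice far below the rest.

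Slc2a1 was lower on average in transgenic mice, but the difference was not called. Its brightest probe set, 1426600_at, read 339.6, 478.5, 355.9, 391.4 and 515.5 in the untrained wild-type mice. Trained wild-type mice read 331.3, 294.7, 292.7, 544.8 and 613.3. In these groups 4 mice stood high, WTUT-135, WTUT-142, WTT-141 and WTT-144. Untrained transgenic mice had 330.5, 385.1, 268.7, 273.4 and 396.5, and trained transgenic mice had 262.6, 253.0, 263.2, 250.3 and 312.8. The trained transgenic mice lay close together, and all 5 were below the median of the trained wild-type mice, although the ranges overlapped.

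The group means for Slc2a1 were 416.2 ± 77.3 (SD, n = 5) in WTUT, 415.4 ± 152 in WTT, 330.8 ± 60.04 in TGUT and 268.4 ± 25.5 in TGT. In this order, the first and second means differ by far less than their spread, and the ranges of every neighbouring pair overlap. Transgenic mice differed from wild-type mice by -0.38 ± 0.11 log2 in the averaged contrast (SE; 95% interval -0.62 to -0.14; limma adjusted p = 0.104; exact permutation p = 0.00391, unadjusted). In trained mice it was -0.47 ± 0.16 (adjusted p = 0.277, exact permutation p = 0.0238), and in untrained mice -0.28 ± 0.16 (adjusted p = 0.731). Training itself differed by -0.14 ± 0.11 averaged over genotypes (adjusted p = 0.549), with an interval of -0.38 to 0.10.

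The other Slc2a1 probe sets followed the same mice. Across the 20 arrays the 3 probe sets correlated with r between 0.957 and 0.986, and 1426600_at and 1426599_a_at were designed on the same source sequence. The transgenic difference was -0.59 ± 0.19 for 1434773_a_at (adjusted p = 0.116) and -0.46 ± 0.14 for 1426599_a_at (adjusted p = 0.104). Mean intensity at 1434773_a_at was 277.9 ± 124 in WTUT, 272.9 ± 163 in WTT, 192.0 ± 56.2 in TGUT and 111.5 ± 25.7 in TGT. Without mouse wtt-137, a trained wild-type mouse with a low Slc2a1 level and the most empty cells, all 3 probe sets were called, at adjusted p of 0.0439, 0.0454 and 0.0429 by limma. In that fit 526 probe sets were called over the whole array, against 167 with the mouse.

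The sequence upstream of Slc2a1 is shown with that of Hk2, since these are the members with the largest spread between mice of 1 group. Both are from RefSeq on GRCm38.p6, cover 250 bases before the gene's start and run 5′ to 3′ on the gene's strand, at chr4:119108495-119108744 (plus strand) for Slc2a1 and chr6:82774455-82774704 (minus strand) for Hk2. Capitals mark 3 motifs on either strand: the GC box GGGCGG, the CCAAT box CCAAT and the core ACGTG of hypoxia response elements.
Slc2a1: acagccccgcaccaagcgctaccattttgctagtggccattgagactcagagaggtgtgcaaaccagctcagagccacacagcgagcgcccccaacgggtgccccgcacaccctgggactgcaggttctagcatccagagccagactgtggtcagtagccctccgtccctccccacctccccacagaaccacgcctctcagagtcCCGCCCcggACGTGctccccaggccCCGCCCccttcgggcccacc
Hk2: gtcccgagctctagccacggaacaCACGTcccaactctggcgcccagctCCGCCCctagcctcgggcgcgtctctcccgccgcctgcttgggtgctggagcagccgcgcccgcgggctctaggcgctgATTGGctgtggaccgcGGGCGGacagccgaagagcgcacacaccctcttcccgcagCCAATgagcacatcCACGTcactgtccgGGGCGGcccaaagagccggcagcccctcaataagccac

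The Slc2a1 sequence held 2 GC boxes, 1 ACGTG and 0 CCAAT boxes. That of Hk2 held 3 GC boxes, 2 CCAAT boxes and 2 ACGTG. Over 32851 promoters of the same length, 32.7% held a GC box, 33.8% a CCAAT box and 16.6% ACGTG. Neither held the TATA box TATAAA, found in 12.4% of promoters, or the E-box CACGTG, which contains ACGTG and was found in 6.02%. For Hk1 the table gave 2 starts, and the 250 bases before each held none of these motifs. These matches describe the letters only.

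**Figure D2:**
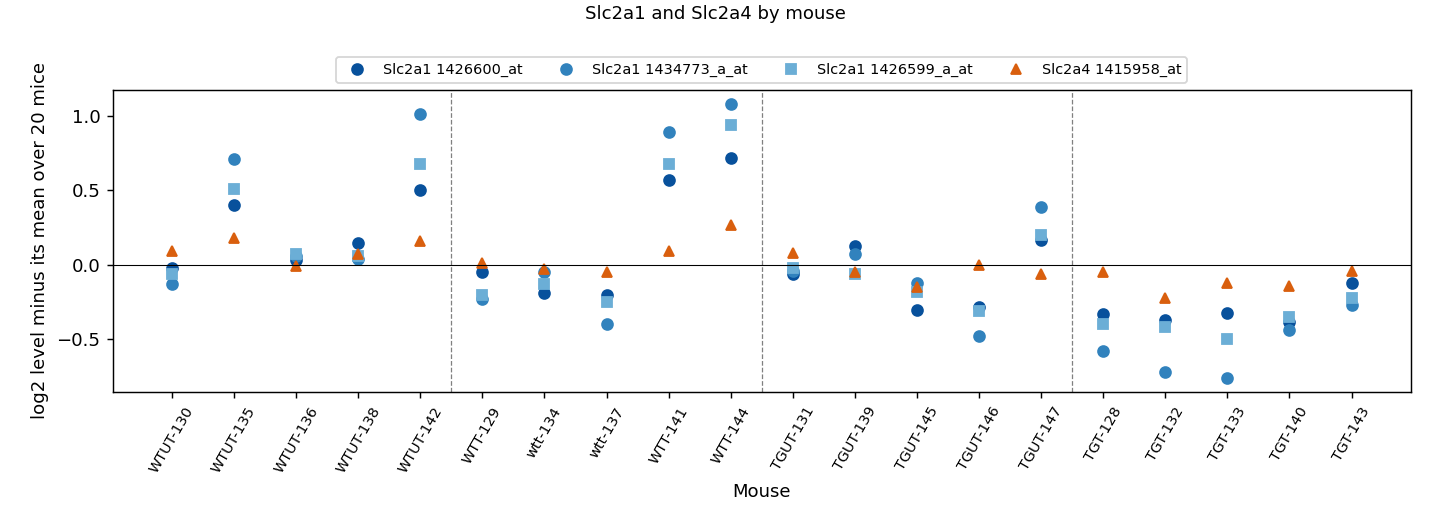
Level of the 3 Slc2a1 probe sets and of Slc2a4 1415958_at in each mouse, as log2 minus the probe set's own mean over the 20 mice; dashed lines divide the groups WTUT, WTT, TGUT and TGT. The 3 Slc2a1 probe sets are high together in mice WTUT-135, WTUT-142, WTT-141 and WTT-144, and Slc2a4 is above its mean in those 4 mice as well.

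Slc2a3 rose with the transgene and fell with training. The brighter probe set, 1437052_s_at, read 167.2, 166.8, 156.6, 160.8 and 171.5 in the untrained wild-type mice. In trained wild-type mice it read 126.2, 119.2, 132.8, 94.65 and 116.7. Every trained wild-type mouse was below every untrained one.
Among the untrained transgenic mice the intensities were 222.2, 194.9, 292.1, 244.4 and 337.8, all above the untrained wild-type mice. Trained transgenic mice had 124.4, 224.5, 168.5, 141.5 and 206.5. Of these, 4 exceeded the highest trained wild-type mouse and 3 were below the lowest untrained transgenic mouse, so the groups overlapped in both directions.

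The Slc2a3 means ran from 258.3 ± 57.0 (SD, n = 5) in untrained transgenic mice through 173.1 ± 42.3 in trained transgenic and 164.6 ± 5.85 in untrained wild-type mice to 117.9 ± 14.5 in trained wild-type mice. The means of trained transgenic and untrained wild-type mice, neighbours in this order, differ by less than the spread within the trained transgenic mice, whose range encloses that of the untrained wild-type mice. The coefficient of variation was 3.6% in untrained wild-type mice and between 12.3% and 24.4% in the other groups.
For the transgene averaged over training the difference was 0.42 ± 0.08 log2 (SE; 95% interval 0.25 to 0.58), 1.34-fold on the scale with the added constant. It passed limma's test (adjusted p = 0.0138), and the exact permutation within training states gave p = 9.45e-05. Training averaged over genotypes differed by -0.38 ± 0.08 (interval -0.55 to -0.22; limma adjusted p = 0.0134, exact permutation p = 0.000157), a fall of 1.30-fold on that scale.

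Within single groups, Slc2a3 at 1437052_s_at fell short of the adjusted threshold although the sizes were alike. Training differed by -0.33 ± 0.11 in wild-type mice (limma adjusted p = 0.371) and by -0.44 ± 0.11 in transgenic mice (adjusted p = 0.0717). The transgene differed by 0.47 ± 0.11 in untrained mice (adjusted p = 0.125) and by 0.36 ± 0.11 in trained mice (adjusted p = 0.24). The interaction was -0.11 ± 0.16, with a 95% interval of -0.44 to 0.22, so a difference between genotypes in the response to training was not detected with 5 mice a group. In wild-type mice for training, and in untrained mice for the transgene, the groups did not overlap. The exact permutation p was 0.00794, the smallest that splits of 5 against 5 mice allow, and it restates that separation. In these contrasts 1069 and 1103 of the 13576 probe sets had an unadjusted limma p under 0.05. How many of all probe sets separate in this way was not counted.

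A second Slc2a3 probe set, 1455898_x_at, was designed on the same source sequence and correlated with the first at r = 0.976 over the 20 arrays. Its means were 129.3 ± 2.76 in WTUT, 96.22 ± 9.98 in WTT, 209.3 ± 37.4 in TGUT and 144.1 ± 34.3 in TGT. The same groups did not overlap. Its transgenic difference was 0.42 ± 0.07 (limma adjusted p = 0.00494) and its training difference -0.33 ± 0.07 (adjusted p = 0.0134). Among the alternatives run, limma called it for the transgene in untrained mice without TGT-128 (adjusted p = 0.039) or TGT-140 (0.0474). Both are trained mice outside this contrast, which share in the model's estimate of spread, and the difference stayed at 0.484. Across the array the 2 fits called 13 and 14 probe sets, against 15 with all mice. For training in transgenic mice it was called without TGUT-145 (0.0467) or wtt-137 (0.0483) and with array weights (0.00742), in 3 of 30 alternatives. Over all probe sets these 3 fits called 762, 232 and 2364, against 42 with all mice and no weights. Mouse wtt-137 is not in that contrast either, and without it the difference stayed at -0.394. The endings of both names mark probe sets that can bind several transcripts.

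The other Slc2a3 probe sets, 1427770_a_at and 1421924_at, were below the filter and did not follow the brighter pair. Their group means were between 101.2 and 116.6 and between 88.75 and 109.2. Without a filter, the transgene averaged over training differed by 0.09 ± 0.04 (adjusted p = 0.348) and 0.13 ± 0.06 (adjusted p = 0.355), and that of training was 0.03 in both. The 2 dim probe sets correlated with each other at r = 0.861 but with 1437052_s_at at 0.09 and 0.21. The Slc2a3 result thus rests on the probe sets of 1 source sequence.

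**Figure D3:**
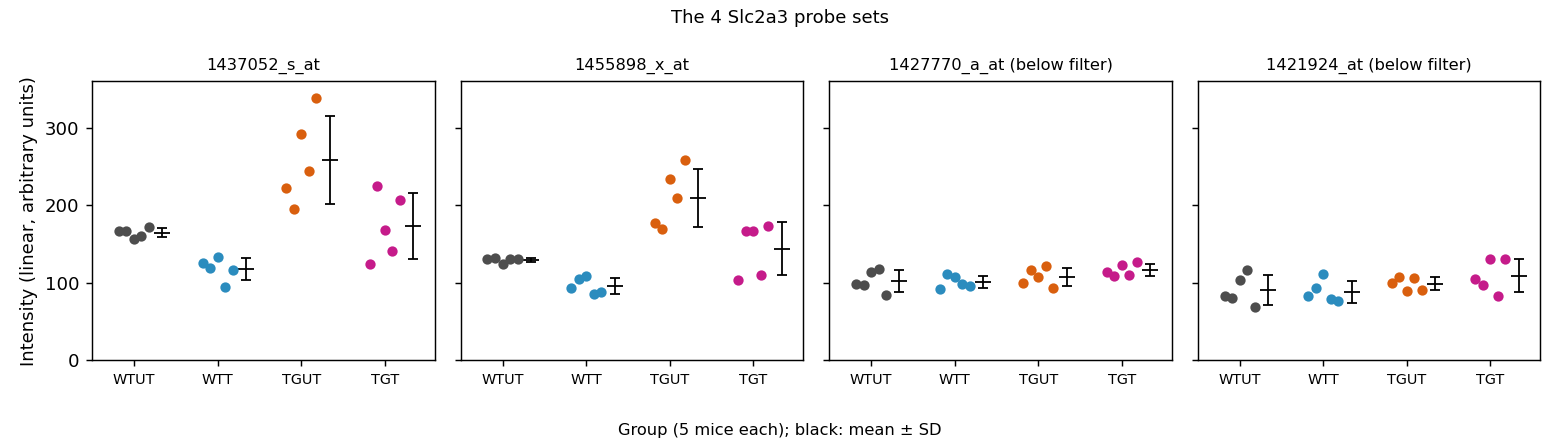
Intensity of the 4 Slc2a3 probe sets by group on a common linear axis; points are mice, black marks and bars are the mean and SD of 5 mice. The 2 tested probe sets share the order of the groups, with untrained transgenic mice highest (258.3 and 209.3) and trained wild-type mice lowest (117.9 and 96.22), and the 2 probe sets below the filter stay between 88.75 and 116.6 in their group means.

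Several cell types other than muscle fibres express Slc2a1 or Slc2a3, and their marker levels stood as follows. Of the leukocyte markers 4 of 8 were bright enough to be tested, and 0 were called by limma in any contrast (1 at an unadjusted p under 0.05). Ptprc, the pan-leukocyte gene, was below the filter at 27.5 to 50.3. The summed leukocyte markers ran from 1670 to 1890 in WTUT, 1710 to 2090 in WTT, 1510 to 1960 in TGUT and 1590 to 2130 in TGT.
Of the nerve markers 5 had a probe set of only 1 symbol, 3 were tested and 0 were called at an adjusted or unadjusted p. The nerve sums were 1020 to 1230, 985 to 1410, 1060 to 1260 and 1100 to 1190 in the same order of groups. Endothelial markers, 6 of 7 tested, summed to 1610 to 2250, 1700 to 2000, 1590 to 2140 and 1460 to 1740. Among them Cdh5, an endothelial cadherin, fell with the transgene by 0.30 log2 (limma adjusted p = 0.0221), but not past the threshold without TGT-143 (0.051) or WTT-141 (0.0516). Cldn5, a tight-junction protein, fell with training by 0.54 (adjusted p = 0.0359), a call kept in 10 of 20 fits that left out 1 mouse. Of the fibroblast markers 4 of 4 were tested, with sums of 3320 to 5640 in WTUT, 4650 to 5970 in WTT, 5050 to 5720 in TGUT and 4260 to 6160 in TGT. Col3a1, a fibrillar collagen, rose with training averaged over genotypes by 1.02 log2 (adjusted p = 0.04), a call kept in 6 of 20 such fits. Its means were 383 in WTUT, 982 in WTT, 507 in TGUT and 852 in TGT.

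Of the red-cell markers 3 had a probe set of only 1 symbol, 2 were tested and 0 were called at an adjusted or unadjusted p. The red-cell sums were 378 to 724 over all mice. They leave out the globin gene Hbb-b1, which had no such probe set. Of the adipocyte markers 4 had such a probe set, 3 were tested and 0 were called at either p, with sums of 2690 to 10900. Of the slow-fibre markers 7 of 7 lay below 0 for the transgene averaged over training. Of these, 6 were called, against 1.23% of all probe sets tested. In untrained mice 2 of 7 were called (0.11% of all probe sets) and in trained mice 3 of 7 (0.0516%). Of the 6 calls, that of Myl3, a slow myosin light chain, was kept in 10 of 20 fits without 1 mouse. In untrained mice the call of Tnni1 was kept in 5 of 20 such fits and that of Myl2 in 14. In trained mice the call of Tnnt1 was kept in 9, that of Myl2 in 17 and that of Tnni1 in 20. The slow-fibre sums were 5150 to 17100 in WTUT, 7070 to 14500 in WTT, 2780 to 5560 in TGUT and 2910 to 4330 in TGT. No marker was at 0 on any array. The part of these cell types and fibre types in the member differences was not tested, and in whole muscle fewer cells of a type and less RNA per cell cannot be told apart.

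Slc2a4, the insulin-responsive transporter, was lower in transgenic mice by a small margin that was not called. At 1415958_at the untrained wild-type mice read 3606, 3822, 3365, 3557 and 3786. The trained wild-type mice read 3390, 3301, 3269, 3593 and 4093, with WTT-144 highest of all 20. Untrained transgenic mice gave 3562, 3253, 3044, 3377 and 3239, and trained transgenic mice gave 3259, 2889, 3112, 3057 and 3280. All 5 mice of each transgenic group were below the median of the wild-type group of the same training state, and the ranges overlapped.

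The Slc2a4 means were 3627 ± 185 (SD, n = 5) in WTUT, 3529 ± 339 in WTT, 3295 ± 191 in TGUT and 3119 ± 160 in TGT. In this order each neighbouring pair differs by about its spread or less. In the averaged contrast the transgene differed by -0.15 ± 0.04 log2 (interval -0.25 to -0.06; limma adjusted p = 0.082; exact permutation p = 0.000693, unadjusted). It was called only without wtt-137 (adjusted p = 0.045), a fit that called 526 probe sets over the array, against 167 with all mice. Training differed by -0.06 ± 0.04 (interval -0.15 to 0.03; adjusted p = 0.491).
The companion probe set of the same source sequence, 1415959_at, had a transgenic difference of -0.11 ± 0.07 (limma adjusted p = 0.49), with 4639 in WTT-144 and 2581 in TGT-132 as its extremes.

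Slc2a4 and Slc2a1 went together from mouse to mouse. Their brightest probe sets correlated at r = 0.843 (Spearman rho 0.753) over 20 arrays, and at 0.726 after each group's mean was taken away. The points share arrays and therefore the scaling of each array. Neither went with Hk2 by r, which was 0.08 with Slc2a1 and 0.09 with Slc2a4, while rho was 0.27 and 0.29.

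**Figure D4:**
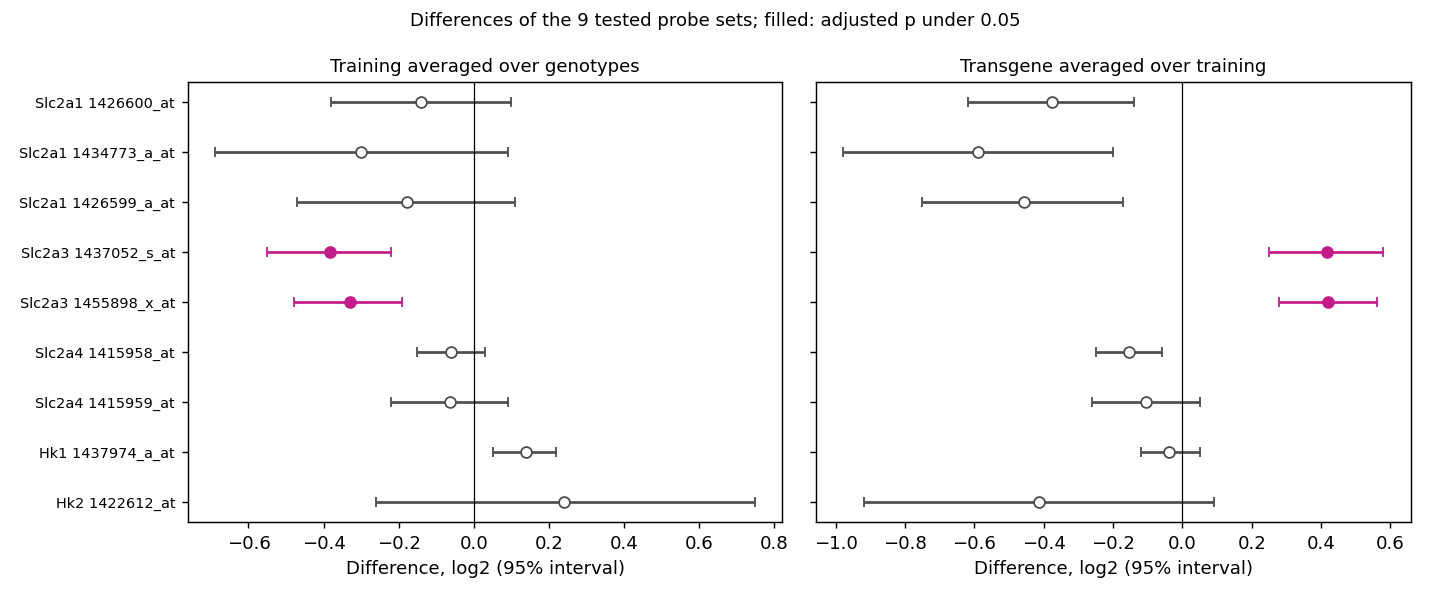
Differences of the 9 tested probe sets on the log2 scale with 95% intervals, for training averaged over genotypes (left) and the transgene averaged over training (right), on axes of different range. Filled symbols mark an adjusted p under 0.05, and these are the 2 Slc2a3 probe sets, at -0.38 and -0.33 for training and 0.42 and 0.42 for the transgene.

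Hk1, the widespread hexokinase, had higher means in trained mice of both genotypes, short of the adjusted threshold. At 1437974_a_at the intensities were 462.7, 419.4, 426.5, 416.9 and 406.2 in the untrained wild-type mice. They were 483.7, 448.9, 453.5, 504.0 and 433.5 in the trained wild-type mice. All 5 trained mice were above the untrained median, and 2 were above every untrained mouse.
Untrained transgenic mice read 437.2, 392.9, 421.3, 361.7 and 405.9. Their trained counterparts read 469.7, 503.1, 467.9, 444.0 and 424.2. Here 4 of 5 trained mice were above every untrained mouse.

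Mean Hk1 was 426.3 ± 21.6 (SD, n = 5) in WTUT, 464.7 ± 28.5 in WTT, 403.8 ± 28.8 in TGUT and 461.8 ± 29.7 in TGT. Training differed by 0.11 ± 0.06 log2 in wild-type mice (limma adjusted p = 0.696) and by 0.17 ± 0.06 in transgenic mice (adjusted p = 0.135). The trained groups, 464.7 and 461.8, did not differ beyond their spread, nor did the untrained groups. Averaged over genotypes the training difference was 0.14 ± 0.04 (interval 0.05 to 0.22; limma adjusted p = 0.054; exact permutation p = 0.000913, unadjusted). It was called without TGUT-145 (adjusted p = 0.0372), WTT-144 (0.0368) or TGT-143 (0.0469), and in 4 of 10 other settings. Across the array the fits without these mice called 1284, 995 and 533 probe sets in the same order, against 678 with all mice. Over all 30 alternatives, fits without 1 mouse included, limma's adjusted p ran from 0.0201 to 0.101. The transgenic difference was -0.04 ± 0.04 (adjusted p = 0.653).
A dim Hk1 probe set, 1420901_a_at, was below the filter. Its untrained transgenic mice (67.62 to 76.56) lay below all untrained wild-type mice (81.27 to 93.02), a difference of -0.13 ± 0.06 (limma adjusted p = 0.742 without a filter, exact permutation p = 0.00794). The permutation p restates that separation, and how many of all probe sets separate so was not counted. The brighter probe set had -0.07 ± 0.06 in that contrast, and r between them was 0.19.

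Hk2, the hexokinase of insulin-responsive muscle, had 1 probe set and no called difference. The untrained wild-type mice read 4318, 4668, 4948, 1798 and 4544. Untrained transgenic mice read 1169, 1007, 4463, 3693 and 3738. In these untrained groups 3 mice, WTUT-138, TGUT-131 and TGUT-139, were far below the rest.
Trained wild-type mice had 3978, 3055, 3914, 3385 and 4715, and trained transgenic mice had 3103, 3807, 3371, 3426 and 3279. No trained mouse was below 3055.

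The Hk2 means were 4055 ± 1282 (SD, n = 5) in WTUT, 3809 ± 634 in WTT, 2814 ± 1606 in TGUT and 3397 ± 259.9 in TGT. None of the neighbours in the order of these means differed beyond its spread. The coefficient of variation was 57.1% in untrained and 7.7% in trained transgenic mice. In untrained mice the transgenic difference was -0.68 ± 0.34 (interval -1.39 to 0.04; limma adjusted p = 0.657), and in transgenic mice training differed by 0.50 ± 0.34 (interval -0.21 to 1.22; adjusted p = 0.498). With array weights, which give less weight to arrays that vary more, the latter was 0.93 and was called (limma adjusted p = 0.0363). That setting called 2364 of all 13576 probe sets in this contrast, against 42 without weights. Leaving out 1 mouse at a time gave 0.21 to 0.73 for this training difference and 0 calls.

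For each gene, the 3 tested genes of another symbol with the highest Pearson r over the 20 arrays were taken as the most alike in pattern. These are descriptions, and the points share arrays, groups and scaling.
Hk2 was most like Ppargc1a, a transcriptional coactivator of mitochondrial genes, at r = 0.892 (rho 0.741; 0.875 within groups). Ppargc1a read 313.7 in WTUT-138, 302.2 in TGUT-131 and 287.5 in TGUT-139, and from 631.5 to 1568 in the other 17 mice. The same 3 mice were thus lowest for both genes, and among the other 17 r was 0.63. Hs6st1, a heparan sulfate sulfotransferase, followed at 0.890 (0.774 among the 17), and Pdzrn3 at 0.880 (0.216 among the 17).

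**Figure D5:**
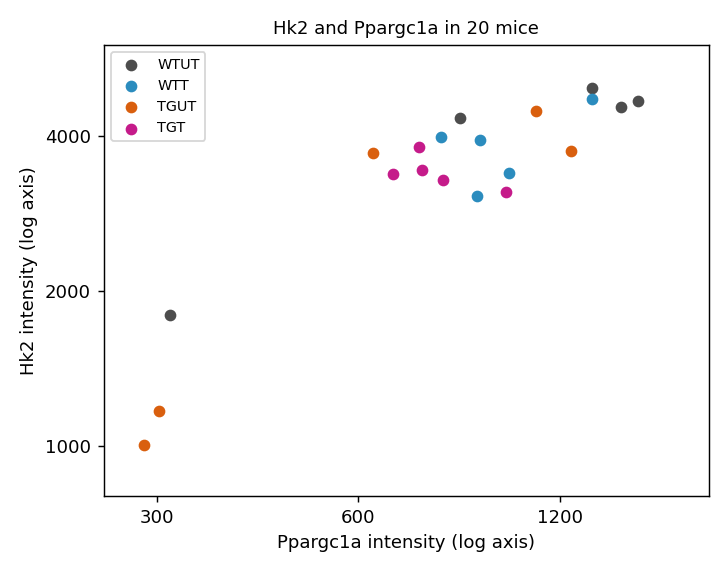
Hk2 against Ppargc1a intensity in 20 mice, both on log axes, coloured by group. The 3 mice at the lower left, 1 WTUT and 2 TGUT, have Hk2 between 1007 and 1798 and Ppargc1a between 287.5 and 313.7, and the other 17 lie at 3055 or more for Hk2.

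Slc2a1 was most like Atp6ap2, a proton-pump accessory protein (r = 0.919), Timm10, a mitochondrial import chaperone (0.913), and Plpbp (0.913), and within groups these were 0.860, 0.853 and 0.867. Timm10 means were 1150 in WTUT, 1050 in WTT, 817 in TGUT and 604 in TGT, the order of the Slc2a1 means. Slc2a4 was most like Socs2, a suppressor of cytokine signalling (0.866), then Slc2a1 and Cry2, a circadian repressor (0.840). Socs2 means were 393 in WTUT, 343 in WTT, 222 in TGUT and 148 in TGT.
Slc2a3 went with Nqo1, a quinone reductase (0.855; 0.686 within groups), Ide, the insulin-degrading enzyme (0.824; 0.587), and Park7 (0.818; 0.477). Hk1 went with Gfpt1, the first enzyme of the hexosamine pathway (0.892; 0.829 within groups), Kdf1 (0.869) and Mib2 (0.841). Gfpt1 means were 183 and 172 in untrained and 235 and 229 in trained mice of the wild-type and transgenic groups.

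Around the members, 5 lists of the glucose uptake pathway were read. Of 9 other glucose transporters, 3 were tested and 0 called by limma in any contrast. Of 5 other hexokinases and their regulators, 2 were tested and 0 called, and in both lists 0 passed at an unadjusted p under 0.05. The smallest p-values there were those of Slc2a10 (0.06 ± 0.08 log2 for the transgene, adjusted p = 0.747), Slc2a8 (0.02 ± 0.03 for training, 0.834), Hkdc1 (0.04 ± 0.04 for the transgene, 0.602) and Adpgk (interaction 0.06 ± 0.16, 1.0).
Of 20 genes of GLUT4 traffic 17 were tested and 0 called by limma in any contrast, with 7 at an unadjusted p under 0.05 in some contrast. Over all 13576 probe sets, 2806 passed that p for training averaged over genotypes and 2355 for the transgene averaged over training. These are counts for single contrasts. How many of all probe sets passed in at least 1 of the 7 contrasts was not counted, so the 7 genes have no like share beside them. The nearest were Rab10, a small GTPase of GLUT4 vesicles (0.14 ± 0.04 for the transgene, adjusted p = 0.111), and Rac1, a GTPase of actin remodelling (-0.14 ± 0.05 for training, 0.106). The transgene medians of this list and of all probe sets were 0.02 and 0.00.

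Among 19 genes that control glucose uptake 14 were tested. With training averaged over genotypes 1 was called higher and 2 lower, where 4.99% of all probe sets tested were called. Esrra, a nuclear receptor of mitochondrial genes, rose by 0.24 ± 0.05 log2 (limma adjusted p = 0.0173), from 732 ± 33.7 to 832 ± 57.8 in wild-type and from 715 ± 67.2 to 904 ± 97.8 in transgenic mice (SD, n = 5). It was called in 20 of 20 fits that left out 1 mouse. Txnip, which promotes the removal of GLUT1 and GLUT4 from the cell surface, fell by 0.73 ± 0.18 log2 (adjusted p = 0.0253), from 4210 ± 1180 to 2950 ± 649 in wild-type and from 3940 ± 1450 to 1910 ± 496 in transgenic mice. That call was lost without TGT-128 (adjusted p = 0.0525), TGUT-131 (0.0507), TGUT-139 (0.0515), wtt-137 (0.0505) or WTUT-135 (0.0541). Hif1a, the oxygen-regulated transcription factor, fell by 0.29 ± 0.08 log2 (adjusted p = 0.039), and this call was kept in only 6 of 20 such fits. The list's median training difference was 0.00, as over all probe sets.

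Of 12 genes for the fates of glucose 6-phosphate, 9 were tested. Of these, 1 was called lower for the transgene averaged over training, where 1.23% of all probe sets tested were called. This was Ugp2, which makes the UDP-glucose for glycogen, lower by -0.40 ± 0.08 log2 (limma adjusted p = 0.0149) and called in 20 of 20 fits that left out 1 mouse. Its means were 5670 ± 766 (SD, n = 5) in WTUT, 4650 ± 674 in WTT, 4010 ± 654 in TGUT and 3720 ± 164 in TGT. No gene of this list was called for training, where its median was 0.08 against 0.00 over all probe sets.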

How the data were processed

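The authors deposited 1 intensity per probe set and array, on a linear scale, for 22690 probe sets. The arrays had been scaled to each other, read from their nearly equal medians; neither labels nor file name the summary or scaling method. Groups came from the titles. A free-text description that disagrees with them for some mice was not used. The table has 1745 empty cells, treated as missing, and 59 zeros. With arrays there is no counting depth, and the number of arrays sets the precision.

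No further scaling was applied, and 66.7 (the table's 20th percentile) was added before log2. After removal of 64 control probe sets, a filter at the 40th percentile of mean level (log2 7.59, about 126 in intensity) left 13576. Symbols are from the platform's annotation, which can be old. Of 20380 probe sets with 1 symbol, 20351 matched the RefSeq table of GRCm38.p6 by gene ID and 0 changed.

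Differences were tested two-sided with limma 3.58.1 in R 4.3.3, as 4 group means in 1 model with a variance trend, adjusted by Benjamini-Hochberg over the 13576 probe sets of each of 7 contrasts. The script was tested on simulated data. Exact permutation p-values (72 values, two-sided, 63504 splits within strata for averaged contrasts) are second tests, not adjusted. A gene is represented by its brightest tested probe set. All member probe sets are described. From each pathway list the called genes are named, or else the 2 with the smallest p, and for each member the 3 genes most like it by r. The other genes named are H2-K1 and Myh7, given because the labels do not spell out MHC-I, and the called or defining markers of cell types. The members and lists were chosen with earlier results of these data known.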

Additional observations from a re-analysis of the deposited data

Results flagged for a closer look

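In 48 groups of 5 values (12 probe sets in 4 groups), 5 held a mouse whose gap to the nearest other, divided by the group's range, exceeded 0.710. Chance gives about 1 in 20. The mice were TGT-143, highest for Slc2a1 1426600_at at 312.8 (0.794), and WTUT-136, lowest for Slc2a3 1455898_x_at at 124.4 (0.827). For Slc2a4 1415959_at they were WTT-144, highest at 4639 (0.724), and TGUT-139, lowest at 2861 (0.812). For Hk2 it was WTUT-138, lowest at 1798 (0.8). Mice TGUT-131 and TGUT-139, lower still for Hk2 at 1169 and 1007, lie close to each other and so did not exceed the value.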

How the results depend on the processing

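Alternatives changed the scaling (quantile normalization, array medians), the added constant (1, table median), the filter (none, 60th percentile), the variance model (no trend, robust), the array weights and the mice fitted (compared groups alone, without both arrays with most empty cells, without each mouse in turn). Both Slc2a3 calls held for both tested probe sets in 20 of 20 fits without 1 mouse and in 9 of 9 other settings that tested them, with adjusted p up to 0.0331. The filter at the 60th percentile removes them, and leaves 1 member called for training (Hk1) and 0 for the transgene. Of all 9051 probe sets it left, 664 and 175 were called in these averaged contrasts. Array weights called 3 members for training in transgenic mice, where they called 2364 of all 13576 probe sets. Without 1 mouse, members called were 0 to 1 for training in transgenic mice, 0 to 1 for the transgene in untrained mice and 2 to 6 for the transgene averaged over training.

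Small uncalled differences changed sign. Without 1 mouse, training in wild-type mice ranged from -0.181 to 0.0489 (Slc2a1 1426600_at), -0.285 to 0.0875 (1434773_a_at), -0.23 to 0.0674 (1426599_a_at), -0.141 to 0.0527 (Slc2a4 1415959_at) and -0.288 to 0.0692 (Hk2). Without both arrays with most empty cells the first 4 were 0.0489, 0.0841, 0.0674 and 0.0527. Hk1 in trained mice was 0.0432 for the transgene under quantile normalization and -0.0357 to 0.018 without 1 mouse. The interaction ranged from -0.0626 to 0.0187 (Slc2a4 1415958_at), -0.161 to 0.0326 (1415959_at) and -0.0066 to 0.164 (Adpgk). The cause was not tested.

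Over all probe sets, calls without 1 mouse ranged from 279 to 1284 for training averaged (678 with all mice) and 79 to 526 for the transgene averaged (167). They ranged from 2 to 762 for training in transgenic mice (42), from 0.0147% to 1.05% of probe sets for the transgene in trained mice (0.0516%), 2 to 26 in untrained mice (15), and 0 to 4 for training in wild-type mice (0). Array weights gave 2716, 617, 2364, 900, 95 and 90 in that order. With 5 mice a group and limma's adjustment over all probe sets, differences of the size of Hk1 and Slc2a4 sat near the threshold.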
